A study of Homo sapiens with 12 samples.

Results

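The 45 genes described here encode the machinery that copies DNA in S phase: origin licensing factors, the replicative helicase and its activators, DNA polymerases, the sliding clamp and its loaders, factors of the lagging strand, enzymes of deoxynucleotide supply, fork protection proteins, and proteins that rebuild chromatin and cohesion behind the fork. They were chosen by symbol, by their role in replication. The rule uses no measured value, but the list was drawn up with earlier results of these data known. All 45 were found among the 58735 genes of the count table, and all 45 were among the 16053 genes with enough counts to be tested. Radiation lowered nearly the whole list in cells with an FXR hairpin: 44 of 45 genes fell, and the median log2 change was -1.51. In cells with a control hairpin 20 fell, with a median over the 45 genes of -0.50. Of all tested genes 10.2% fell with the FXR hairpin and 4.96% with the control hairpin. When 1 library was left out, the counts of 44 and 20 ran from 42 to 44 and from 9 to 33.

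Eukaryotic origins are licensed in G1, when the origin recognition complex, CDC6 and CDT1 load the MCM2-7 ring onto DNA. In S phase kinases turn the ring into an active helicase by adding CDC45 and the GINS complex, and polymerases, clamp and clamp loader then follow the fork. Many of these genes are transcribed in waves under E2F transcription factors, which the retinoblastoma protein family holds back in cells that have left the cycle, and irradiated cells with working p53 can leave the cycle through the inhibitor p21.

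The cells were A549, an established human lung cancer line with an alveolar origin. One line held a stable control hairpin (shControl, a short hairpin RNA) and the other a hairpin against FXR (shFXR), a nuclear receptor for bile acids if FXR stands for NR1H4, which the labels do not spell out. Each line received sham treatment or ionizing radiation, with RNA taken 3 days after the latter, and with 3 replicates that the design text calls biological in each of the 4 groups. The sources used here give no radiation dose, no harvest time of sham cells and no word on whether a line is 1 clone or a pool or holds more than 1 hairpin. Differences between the lines other than FXR may enter each comparison of lines. Poly(A) RNA was sequenced from bulk cultures, so that fewer cells in S phase and less transcript per cell cannot be told apart in any value below.

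The libraries held 17.1 to 19 M counts, and mitochondrial transcripts made up 12.9% to 16.8% of them in shControl and 10% to 13.1% in shFXR libraries. NR1H4 stood at 22 to 29.1 CPM (counts relative to library size after TMM scaling) in the 6 shControl libraries and at 2.81 to 5.08 CPM in the 6 shFXR libraries, without overlap. The marker values that follow are CPM relative to total counts, without TMM scaling. Of 5 epithelial markers the keratins KRT8 and KRT18 were abundant, at 1620 to 5950 and 698 to 2160 CPM. KRT19 stood at 35.2 to 115 CPM, CDH1 at 40.3 to 127 CPM and EPCAM at only 2.42 to 6.1 CPM. Of 5 alveolar type 2 markers ABCA3 stood at 70.7 to 109 CPM and SFTPB at 0.0551 to 4.88 CPM. SFTPC, NKX2-1 and SFTPA1 stood at most at 0.459, 0.426 and 0.0553 CPM. Replicate pairs were less alike in shControl groups (chi-square over degrees of freedom between 6.52 and 25.4) than in shFXR groups (between 2.54 and 7.22). Sham shControl library 2 stood furthest from its group, with 25.4 against library 1 and 22.1 against library 3. Libraries 1 and 3 of that group had 7.32. The tests pool the spread between replicates over the 12 libraries.

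The promoters of the members were searched for letters that E2F factors are known to bind. Windows of 300 bases, from 250 before to 50 after an annotated start, were given by RefSeq (GRCh38.p14) for 37 of the 45 members, 48 windows in all. The E2F octamers searched were TTTCCCGC, TTTGGCGC, TTTCGCGC and TTTGCCGC on either strand, and matches on opposite strands may overlap. At least 1 was present in 21 of the 48 windows (43.8%), against 3.31% of all 35116 windows and 4.69% of the 16045 windows of genes tested here. The windows of 4 genes are printed, each on its gene's strand and with the octamers in capitals, because they run from several matches to none and from POLA2, whose radiation response did not pass the main test, to MCM10, which fell furthest. They are the windows of MCM6 (chr2:135876394-135876693, minus strand), CLSPN (chr1:35769929-35770228, minus strand), POLA2 (chr11:65261712-65262011, plus strand) and MCM10 (chr10:13161308-13161607, plus strand).
MCM6: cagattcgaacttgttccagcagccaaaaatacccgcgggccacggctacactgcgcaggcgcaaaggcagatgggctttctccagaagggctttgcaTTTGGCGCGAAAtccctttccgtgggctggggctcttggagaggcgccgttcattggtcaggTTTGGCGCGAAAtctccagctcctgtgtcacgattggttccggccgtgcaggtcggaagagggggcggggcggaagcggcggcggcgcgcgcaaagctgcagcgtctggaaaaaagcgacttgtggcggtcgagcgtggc
CLSPN: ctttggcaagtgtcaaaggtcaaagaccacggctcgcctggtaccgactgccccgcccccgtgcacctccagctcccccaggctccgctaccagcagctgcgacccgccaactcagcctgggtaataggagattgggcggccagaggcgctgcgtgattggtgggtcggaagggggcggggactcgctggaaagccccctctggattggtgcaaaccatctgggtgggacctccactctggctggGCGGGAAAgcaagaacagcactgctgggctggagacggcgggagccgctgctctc
POLA2: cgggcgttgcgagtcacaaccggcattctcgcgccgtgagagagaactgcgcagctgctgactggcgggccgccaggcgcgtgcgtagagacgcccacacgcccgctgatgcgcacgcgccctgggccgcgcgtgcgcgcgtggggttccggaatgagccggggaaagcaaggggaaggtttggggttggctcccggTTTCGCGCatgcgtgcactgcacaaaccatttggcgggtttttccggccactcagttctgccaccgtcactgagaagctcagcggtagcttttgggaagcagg
MCM10: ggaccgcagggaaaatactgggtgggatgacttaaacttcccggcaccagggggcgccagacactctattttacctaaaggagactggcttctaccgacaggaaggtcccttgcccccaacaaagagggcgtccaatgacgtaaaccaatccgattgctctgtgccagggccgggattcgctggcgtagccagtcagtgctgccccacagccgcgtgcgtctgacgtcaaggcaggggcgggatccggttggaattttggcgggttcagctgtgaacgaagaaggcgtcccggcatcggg

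In the MCM6 window 4 octamers form 2 overlapping pairs, whose first bases lie at positions -152 and -148 and at -90 and -86 from the start. CLSPN has 1 match at position -5 and POLA2 1 at -53, while MCM10 has none. Across the 27 matches in member windows, 16 began within the 100 bases before the start. The radiation response of genes with and without a match covered similar ranges: in shFXR cells the median log2 radiation change was -1.48 over the 20 genes with an octamer (range -3.11 to -0.61) and -1.53 over the 17 without one (range -3.52 to -0.36). POLA2, the one member that did not pass the main test there, has an octamer, and MCM10, which fell furthest, does not. Only exact matches were counted, so a window without one may hold close variants. The MCM10 window holds tttggcgg, which differs from TTTGGCGC in its last letter, and the POLA2 window holds the same variant. Whether genes with and without a match differ in E2F control was not tested. The CCAAT box was found in 62.5% of member windows, 34.1% of those of tested genes and 34.6% of all windows. The cell cycle homology hexamers TTTGAA and TTCGAA, an element of late cell cycle genes, were found in 4.17% of member windows, 12.0% of those of tested genes and 16.4% of all windows. These are descriptions of letters in a window, not of bound sites.

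**Figure D1:**
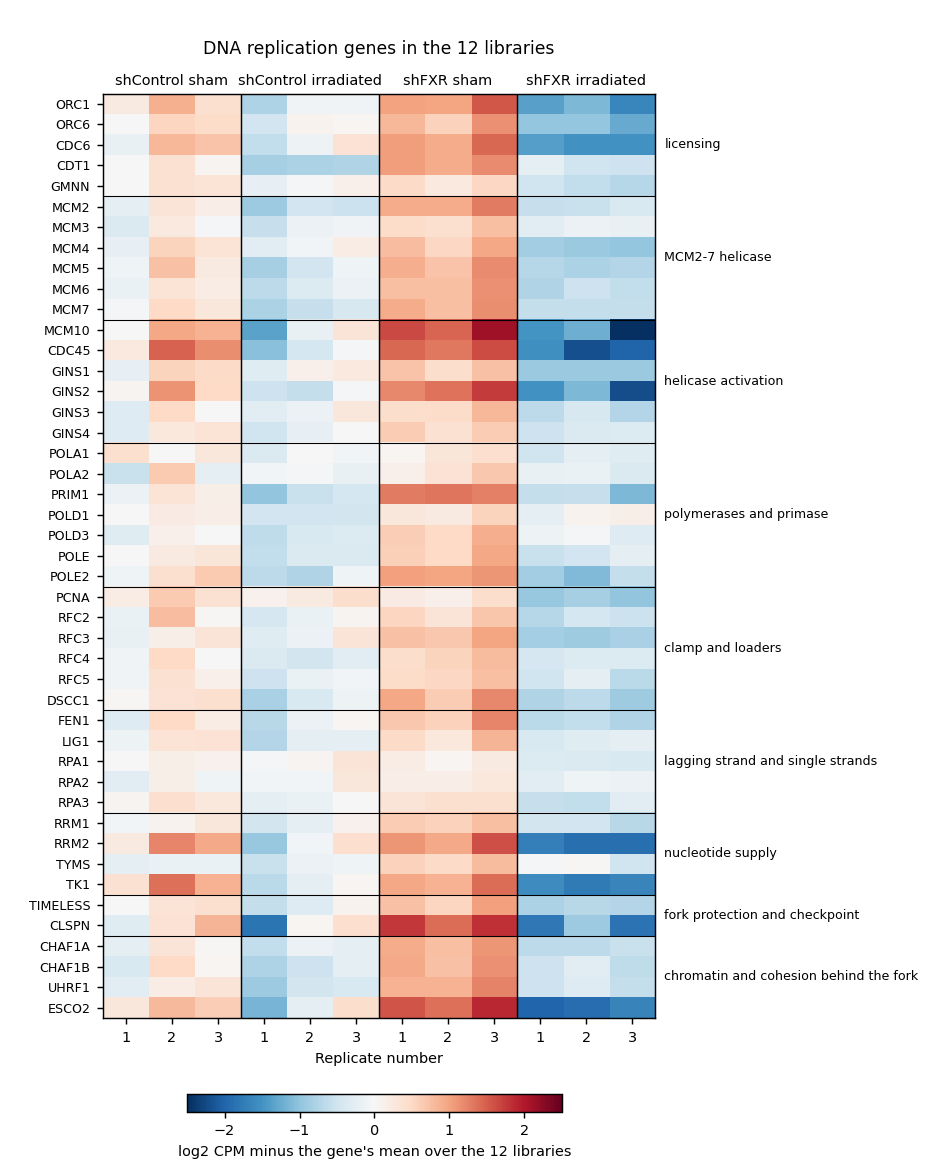
Level of each of the 45 genes (rows, grouped by role) in the 12 libraries (columns), as log2 CPM minus the gene's mean over all 12 (colour scale from -2.5 to 2.5). Sham shFXR libraries are the reddest columns and irradiated shFXR libraries the bluest, while sham and irradiated shControl libraries overlap in 27 of the 45 genes.

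Levels among the members spanned a wide range. Per kilobase of transcript, PCNA had the highest level in sham shControl cells (127 CPM per kb), followed by TK1 (28.1) and MCM7 (24.1), and CLSPN the lowest (0.518). The summed level of the 45 genes was 1000, 1440 and 1270 CPM in the sham shControl libraries and 785, 930 and 1070 CPM in the irradiated ones. The sum in shFXR cells was 1610, 1490 and 1930 CPM in sham and 666, 698 and 669 CPM in irradiated libraries. The sums overlapped between sham and irradiated shControl cells and were far apart in shFXR cells. Within a group the roles did not all move alike. In irradiated shFXR libraries 1 to 3 the licensing genes summed to 38.9, 35.7 and 33.3 CPM. The polymerase and primase genes summed to 77.7, 88.0 and 88.8 CPM there. Sham shFXR cells had the highest group mean for 44 of 45 genes, the exception being PCNA, and irradiated shFXR cells the lowest for 35. For CDT1, CHAF1B, LIG1, MCM2, MCM3, POLD1, POLD3, POLE, TYMS and UHRF1 irradiated shControl cells had the lowest mean.

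Within groups, single libraries also stood apart for the list as a whole. Sham shControl library 1 was the lowest of its group for 44 genes and irradiated shControl library 1 the lowest for 39. Irradiated shControl library 3 was the highest of its group for 39 genes, and sham shFXR library 3 for 44. The summed level of 12 mitotic genes, such as MKI67 and TOP2A, was lowest or highest in the same libraries as named here. It was 408, 554 and 567 CPM in sham shControl and 201, 273 and 337 CPM in irradiated shControl libraries. In shFXR cells it was 649, 586 and 771 CPM in sham and 122, 113 and 105 CPM in irradiated libraries. The rest of the order was not always shared. The replication genes summed to 1000, 1440 and 1270 CPM in sham shControl libraries, highest in library 2. They summed to 666, 698 and 669 CPM in irradiated shFXR libraries, without the steady fall of the mitotic sum. What part the share of dividing cells had in the values of single libraries was not tested.

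The first comparison asked how radiation changed the genes in shControl cells. Of the 45 members 20 fell and 0 rose at an adjusted p under 0.05, where 4.96% of all tested genes fell and 5.07% rose. Changes ran from -1.5 for CDC45 to 0.13 for RPA2 on the log2 scale, and CDC45 and TK1 were at least 2-fold lower. In 27 of 45 genes the sham and irradiated libraries overlapped. The other members lay lower in every irradiated library than in every sham library, as did 12.0% of all tested genes. The number of members that fell was 33 without sham library 1, 11 without sham library 2, 11 without irradiated library 1, 9 without irradiated library 2, 31 with no filter on low counts and 11 in a fit of the 6 shControl libraries alone. In each fit that left out 1 library, 8 members were called: CDC45, CDT1, MCM2, MCM7, POLD1, POLE, TK1 and UHRF1.

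In shFXR cells, the same comparison gave 44 of 45 members lower and 0 higher, where 10.2% of all tested genes fell and 10.9% rose. The changes ran from -3.52 for MCM10 to -0.36 for POLD1. A fall of at least 2-fold was called in 33 members and one of at least 4-fold in 10: CDC45, CDC6, CLSPN, ESCO2, GINS2, MCM10, ORC1, PRIM1, RRM2 and TK1. For all 45 genes every irradiated shFXR library lay below every sham shFXR library, as did 21.1% of all tested genes. The 20 members that fell in shControl cells all fell here as well, where 1.82% of all tested genes were called lower in both lines. For 18 members each irradiated shFXR library was also below the other 9 libraries of the study (6.81% of all tested genes). Leaving out 1 library ended only the calls of POLD1 (adjusted p = 0.12 without sham library 3 and 0.12 without irradiated library 1) and RPA2 (adjusted p = 0.075 without sham library 3, 0.10 without irradiated library 1 and 0.057 without irradiated library 3).

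The difference between these radiation responses, shFXR minus shControl, was tested directly. It was called lower for 35 members and higher for 0, where 7.67% of all tested genes were lower and 7.31% higher, and its median over the members was -0.92. It ran from -2.71 for ESCO2 to 0.24 for POLD1, the one member whose estimate was above 0, and 22 members differed by at least 2-fold. In the 12 fits that each left out 1 library, 24 members were called every time and between 24 and 42 were called in any single fit. The 11 that lost a call in at least 1 of them were CDT1, CHAF1B, DSCC1, GINS3, MCM5, POLE2, RFC5, RPA2, RPA3, TYMS and UHRF1, with adjusted p between 0.051 and 0.13. Leaving out sham shControl library 2 or irradiated shControl library 1 ended none of these calls, and each of the other 10 libraries ended at least 1.

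**Figure D2:**
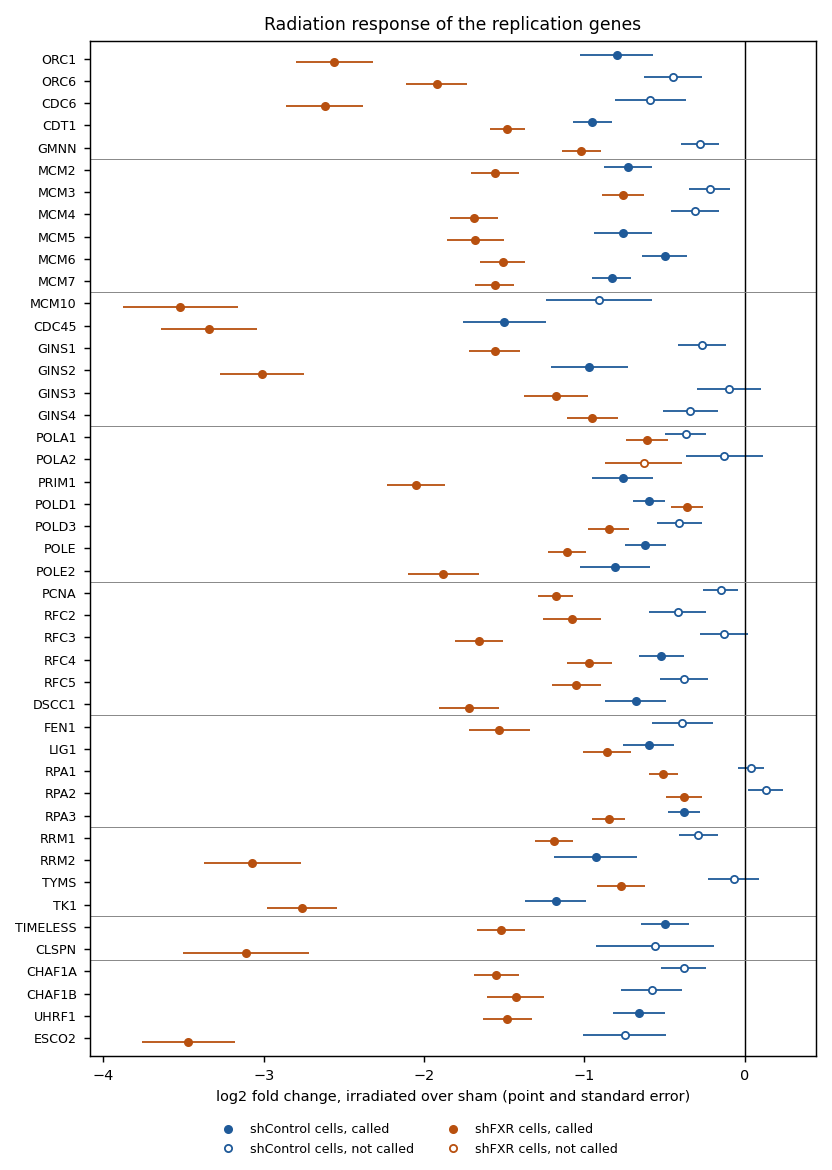
Radiation response of each gene as log2 fold change (x axis, irradiated over sham; bars are standard errors) in shControl cells (blue) and shFXR cells (orange), with filled points for adjusted p under 0.05. In shFXR cells 44 of 45 points are filled, and the point lies left of the shControl point for every gene but POLD1.

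All 5 origin licensing genes fell in shFXR cells, with a median of -1.92. In shControl cells 2 of 5 fell, with a median of -0.59. CDC6, the ATPase that helps load the MCM ring (chromosome 17, 40287633 to 40304657, hg38), stood at 15.2, 30.8 and 28.3 CPM in the sham shControl libraries and 11.3, 15.8 and 22.2 CPM in the irradiated ones, which overlapped. Its shFXR levels were 35.4, 32.9 and 46.9 CPM before and 6.65, 6.08 and 6.05 CPM after radiation, so that the irradiated libraries were the lowest of all 12. Its change was -0.59 ± 0.22 (standard error, adjusted p = 0.092) in shControl and -2.62 ± 0.24 (adjusted p = 1.2e-07) in shFXR cells, a difference of -2.03 ± 0.32 (adjusted p = 7.8e-04). ORC1, the largest subunit of the origin recognition complex, fell by 0.80 ± 0.23 in shControl and 2.56 ± 0.24 in shFXR cells, though the shControl call was lost without sham library 2 or without irradiated library 1 or 2 (adjusted p = 0.12, 0.092 and 0.062). ORC6, its smallest, fell by 1.92 ± 0.19 in shFXR cells and had -0.45 ± 0.18 in shControl cells. CDT1, the partner of CDC6 in loading, fell in both, by 0.95 ± 0.12 and 1.48 ± 0.11, a difference of -0.52 ± 0.17 (adjusted p = 0.039) that did not hold with 8 of the 12 libraries left out in turn. Geminin (GMNN), which binds and blocks CDT1 outside G1, fell by 1.02 ± 0.12 in shFXR cells and had -0.28 ± 0.12 in shControl cells.

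The 6 subunits of the MCM2-7 ring, the motor of the helicase, all fell in shFXR cells, with a median of -1.56, and 4 of 6 fell in shControl cells, with a median of -0.61. MCM4 differed most between the lines. Its levels were 56.3, 94.8 and 82.7 CPM in sham and 53.1, 61.5 and 73.8 CPM in irradiated shControl libraries, which overlapped. They were 111, 93.4 and 127 CPM in sham and 35.3, 34.0 and 33.0 CPM in irradiated shFXR libraries. MCM4 thus had -0.31 ± 0.15 (adjusted p = 0.19) in shControl cells and -1.69 ± 0.15 (adjusted p = 9.0e-08) in shFXR cells, a difference of -1.38 ± 0.21 (adjusted p = 5.2e-04). MCM2, MCM5, MCM6 and MCM7 fell in both lines, by 0.73, 0.76, 0.50 and 0.83 in shControl and by 1.56, 1.68, 1.51 and 1.56 in shFXR cells. Of their shControl calls, that of MCM6 was lost without sham library 2 or 3 or irradiated library 1 or 2 (adjusted p = 0.065 to 0.095), and that of MCM5 without irradiated library 2 (adjusted p = 0.055). MCM3 had the smallest response of the ring, -0.76 ± 0.13 in shFXR and -0.22 ± 0.13 in shControl cells, and its difference did not pass (-0.55 ± 0.19, adjusted p = 0.057). Subunits of a ring with 1 copy of each thus differed in transcript response, from -1.69 to -0.76 in shFXR cells. Exons of MCM2 overlap those of a gene on the opposite strand over 23.6% of their length, and no source used here gives the strand setting of the counting.

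Helicase activation genes all fell in shFXR cells, 6 of 6 with a median of -2.28, while 2 of 6 fell in shControl cells (median -0.63). MCM10, a scaffold needed to start unwinding (chromosome 10, 13161554 to 13211104), stood at 4.85, 9.42 and 8.76 CPM in sham and 1.92, 4.23 and 6.02 CPM in irradiated shControl libraries. The shFXR libraries went from 15.1, 13.3 and 21.1 CPM to 1.71, 2.06 and 0.545 CPM, the last of these from 10 counts. The sham shFXR libraries were the highest of the 12, and irradiated shFXR libraries 1 and 2 lay near irradiated shControl library 1. MCM10 changed by -3.52 ± 0.36 (adjusted p = 6.7e-07) in shFXR cells against -0.91 ± 0.33 (adjusted p = 0.081) in shControl cells, a difference of -2.61 ± 0.50 (adjusted p = 0.0028). CDC45, which joins the ring to form the active helicase, fell from 4.70, 11 and 8.81 to 1.92, 2.92 and 3.80 CPM in shControl cells, by 1.5 ± 0.26. CDC45 in shFXR cells fell from 10.6, 9.88 and 12.2 to 1.36, 0.860 and 0.981 CPM, by 3.34 ± 0.30. Within GINS, the tetramer that completes the helicase, the subunits were unequal: in shFXR cells GINS2 fell by 3.01 ± 0.26, GINS1 by 1.56 ± 0.16, GINS3 by 1.18 ± 0.20 and GINS4 by 0.95 ± 0.16. In shControl cells GINS2 was called (-0.97 ± 0.24, adjusted p = 0.015), but not without sham library 2 or irradiated library 2 (adjusted p = 0.073 and 0.086).

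Of the polymerase genes 6 of 7 fell in shFXR cells, with a median of -0.85, in shControl cells 4 of 7, with a median of -0.60, and the difference was called for 2, PRIM1 and POLE2. PRIM1, the catalytic subunit of primase, which lays the RNA primers (chromosome 12, 56731596 to 56752373), stood at 4.12, 5.74 and 5.04 CPM in sham and 2.30, 3.09 and 3.36 CPM in irradiated shControl libraries, which did not overlap. Its levels in shFXR cells were 11.1, 11.5 and 10.9 CPM and then 3.01, 3.04 and 2.07 CPM, so that the irradiated cells of the 2 lines reached similar levels from different starting points. PRIM1 fell by 2.05 ± 0.18 in shFXR and by 0.76 ± 0.19 in shControl cells, a difference of -1.28 ± 0.27 (adjusted p = 0.0046). The shControl call was lost without sham library 2 or irradiated library 1 or 2 (adjusted p = 0.054, 0.052 and 0.055). Its exons share 21.6% of their bases with other genes, among them the abundant NACA on the same strand.

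POLA2, the second subunit of polymerase alpha, which extends the primers, was the one gene not called in shFXR cells. It was called lower there with total count scaling, no filter, only the shFXR libraries fitted and limma weights (adjusted p = 0.047, 0.015, 0.0087 and 0.018), so that its place outside the other 44 rests on the settings. POLA2 stood at 2.64, 6.10 and 3.25 CPM in sham and 3.67, 3.77 and 3.42 CPM in irradiated shControl libraries. Its shFXR levels were 4.20, 4.94 and 6.15 CPM in sham and 3.41, 3.44 and 3.00 CPM in irradiated libraries, which did not overlap (-0.63 ± 0.24, adjusted p = 0.068). Sham shControl library 2 lay well above the others of its group for this gene, whose exons share 35.1% of their bases with another gene on the same strand. POLA1, the catalytic subunit, fell by 0.61 ± 0.13 in shFXR cells. POLD1, the catalytic subunit of the lagging strand polymerase delta, fell by 0.60 ± 0.10 in shControl cells, from 33.7, 38.7 and 37.8 to 24.2, 24.1 and 24.3 CPM, and by 0.36 ± 0.10 in shFXR cells, from 41.1, 39.1 and 49.2 to 28.5, 35.5 and 37.0 CPM. Its difference did not pass (0.24 ± 0.15, adjusted p = 0.27). POLE, the catalytic subunit of the leading strand polymerase epsilon, fell by 0.62 ± 0.13 and 1.11 ± 0.12 in shControl and shFXR cells, and its partner POLE2 by 0.81 ± 0.22 and 1.88 ± 0.22. The difference of POLE2 was -1.06 ± 0.31 (adjusted p = 0.028), and it was lost with each of 6 libraries left out in turn (adjusted p = 0.052 to 0.11). The shControl call of POLE2 was lost without sham library 3 or irradiated library 1 or 2 (adjusted p = 0.089, 0.057 and 0.12).

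**Figure D3:**
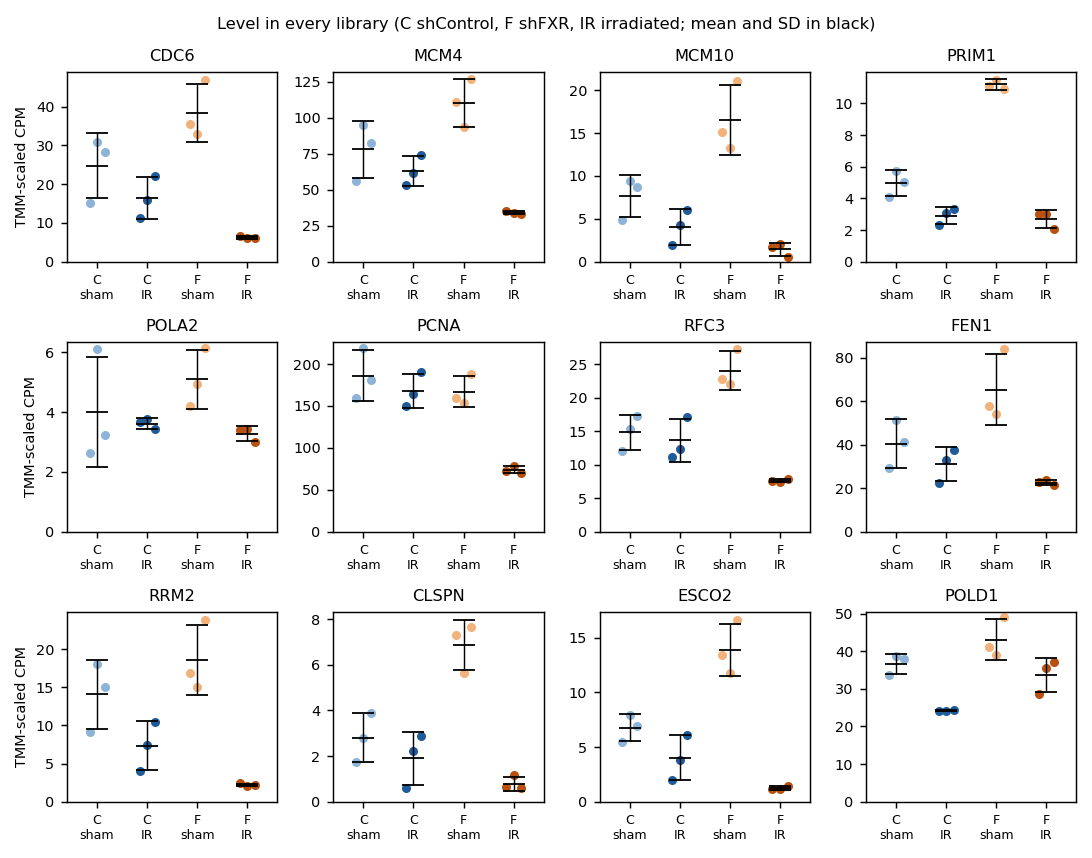
TMM-scaled CPM (y axis, starting at 0) of 12 members in every library, by group, with group mean and SD (n = 3) as black lines. Irradiated shFXR libraries lie lowest for CDC6, MCM4, PCNA, RFC3, RRM2 and ESCO2, whereas POLA2 lies between 2.64 and 6.15 CPM with overlap of the shControl groups and POLD1 is lowest in irradiated shControl cells.

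The sliding clamp and its loaders fell as a group in shFXR cells, 6 of 6 with a median of -1.13, and in 2 of 6 cases in shControl cells (median -0.40). PCNA, the clamp that tethers polymerases to DNA (chromosome 20, 5114953 to 5126626), stood at 159, 219 and 181 CPM in sham and 150, 164 and 190 CPM in irradiated shControl libraries. PCNA in shFXR cells stood at 160, 153 and 188 CPM in sham and 72.6, 78.8 and 70.4 CPM in irradiated libraries, so that 3 groups overlapped and the irradiated shFXR libraries lay apart. Its change was -0.15 ± 0.11 (adjusted p = 0.41) in shControl and -1.18 ± 0.11 (adjusted p = 1.6e-07) in shFXR cells, a difference of -1.03 ± 0.15 (adjusted p = 4.7e-04). RFC3, a subunit of the clamp loader (chromosome 13, 33818049 to 33966558), showed a like contrast. It stood at 12.0, 15.3 and 17.2 CPM and then 11.2, 12.4 and 17.1 CPM in shControl cells, and at 22.7, 22 and 27.3 CPM and then 7.62, 7.40 and 7.79 CPM in shFXR cells. Its difference was -1.53 ± 0.21 (adjusted p = 3.2e-04), the largest of this group. The other loader subunits RFC2, RFC4 and RFC5 fell by 1.08, 0.97 and 1.05 in shFXR cells, and of their differences that of RFC5 was called (-0.67 ± 0.21, adjusted p = 0.035), though not with each of 6 libraries left out in turn. DSCC1, part of the alternative loader that acts in cohesion, fell by 1.72 ± 0.19 in shFXR and 0.68 ± 0.19 in shControl cells, and that shControl call was lost without sham library 2 or 3 or irradiated library 1 or 2 (adjusted p = 0.062 to 0.090).

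On the lagging strand, all 5 genes fell in shFXR cells (median -0.85) and 2 of 5 in shControl cells (median -0.38). FEN1, the nuclease that trims flaps between Okazaki fragments (chromosome 11, 61792637 to 61797244), stood at 29.1, 51.5 and 41.1 CPM in sham and 22.3, 32.8 and 37.6 CPM in irradiated shControl libraries, which overlapped. FEN1 in shFXR cells fell from 57.8, 53.9 and 84.1 to 22.7, 23.6 and 21.6 CPM. The changes were -0.39 ± 0.19 (adjusted p = 0.20) and -1.53 ± 0.19 (adjusted p = 8.0e-06), with a difference of -1.14 ± 0.27 (adjusted p = 0.0093). LIG1, the ligase that seals the fragments, fell by 0.86 ± 0.15 in shFXR and 0.60 ± 0.16 in shControl cells, the latter lost without sham library 2 or 3 or irradiated library 1 (adjusted p = 0.055, 0.064 and 0.068). The RPA trimer, which coats single-stranded DNA, had a smaller response in 2 of its 3 subunits: RPA1, RPA2 and RPA3 fell by 0.51, 0.38 and 0.85 in shFXR cells, and in shControl cells RPA1 and RPA2 had 0.04 ± 0.08 and 0.13 ± 0.11.

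Deoxynucleotide supply genes fell in 4 of 4 cases in shFXR cells, with a median of -1.97, and in 2 of 4 in shControl cells, with a median of -0.61. RRM2, the small subunit of ribonucleotide reductase whose supply follows the cell cycle (chromosome 2, 10120698 to 10131419), stood at 9.18, 18.1 and 15 CPM in sham and 4.06, 7.49 and 10.5 CPM in irradiated shControl libraries, which overlapped. RRM2 in shFXR cells fell from 16.9, 15 and 23.8 to 2.39, 2.12 and 2.13 CPM, below every other library. Its changes were -0.93 ± 0.26 (adjusted p = 0.026) and -3.07 ± 0.30 (adjusted p = 2.5e-07), and the difference was -2.13 ± 0.40 (adjusted p = 0.0023). The shControl call did not hold without sham library 2 or 3 or irradiated library 1 or 2 (adjusted p = 0.057 to 0.094). RRM1, the large subunit, fell by 1.19 ± 0.12 in shFXR cells and had -0.29 ± 0.12 in shControl cells. TK1, the S phase thymidine kinase, fell in both lines, by 1.18 ± 0.19 and 2.76 ± 0.22, while thymidylate synthase (TYMS) fell by 0.77 ± 0.15 in shFXR cells and had -0.07 ± 0.16 in shControl cells. TYMS exons overlap genes of the opposite strand over 46.6% of their length and RRM2 exons a same-strand gene over 20.2%.

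The fork protection and checkpoint genes TIMELESS and CLSPN both fell in shFXR cells. CLSPN encodes claspin, which carries the checkpoint signal from ATR to CHK1 (chromosome 1, 35720218 to 35769967). It stood at 1.74, 2.78 and 3.88 CPM in sham and 0.603, 2.23 and 2.87 CPM in irradiated shControl libraries, and at 7.29, 5.63 and 7.66 CPM and then 0.625, 1.15 and 0.600 CPM in shFXR cells. The sham shFXR libraries were the highest of the 12, and the lowest values rest on 11 counts. Its change was -0.56 ± 0.37 (adjusted p = 0.36) in shControl and -3.11 ± 0.39 (adjusted p = 8.7e-06) in shFXR cells, with a difference of -2.55 ± 0.55 (adjusted p = 0.0058). TIMELESS, which couples polymerases to the helicase, fell by 1.52 ± 0.15 in shFXR and 0.50 ± 0.15 in shControl cells, the latter lost without sham library 2 or 3 or irradiated library 1 or 2 (adjusted p = 0.072 to 0.13).

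Behind the fork, all 4 genes of chromatin and cohesion fell in shFXR cells (median -1.52) and 1, UHRF1, in shControl cells. ESCO2, which acetylates cohesin so that sister chromatids stay together, had the largest difference between the lines of all 45. It stood at 5.49, 7.91 and 6.92 CPM in sham and 2.03, 3.83 and 6.13 CPM in irradiated shControl libraries, which overlapped. The shFXR libraries went from 13.4, 11.8 and 16.6 to 1.14, 1.2 and 1.42 CPM, from the highest to the lowest of the 12 libraries. The changes were -0.75 ± 0.26 (adjusted p = 0.065) and -3.47 ± 0.29 (adjusted p = 3.8e-08), and the difference was -2.71 ± 0.39 (adjusted p = 4.3e-04). CHAF1A and CHAF1B, subunits of the CAF-1 chaperone that deposits histones on new DNA, fell by 1.55 ± 0.14 and 1.43 ± 0.18 in shFXR cells. UHRF1, which guides maintenance of DNA methylation, fell by 1.48 ± 0.15 in shFXR and by 0.66 ± 0.16 in shControl cells.

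The comparison of the lines without radiation asked what the FXR hairpin line looked like at baseline. Of the 45 genes 31 were higher in sham shFXR than in sham shControl cells and 0 lower, where 18.0% of all tested genes were higher and 19.4% lower, with a median over the members of 0.54. CLSPN (1.29 ± 0.32), PRIM1 (1.17 ± 0.17), MCM10 (1.11 ± 0.29) and ESCO2 (1.04 ± 0.23) had the largest differences. With DESeq2 the calls of MCM10 and CDC6 were lost (adjusted p = 0.074 and 0.093). All 6 MCM2-7 genes were higher, by 0.50 for MCM4 to 0.97 for MCM2. All 4 genes behind the fork were higher too, and for 28 of the 45 genes every sham shFXR library lay above the other 9 libraries (7.46% of all tested genes). The RPA genes did not pass (0.06 to 0.27), and neither did PCNA (-0.16 ± 0.11, adjusted p = 0.27), TK1 (0.17 ± 0.18, adjusted p = 0.51), CDC45 (0.42 ± 0.23, adjusted p = 0.16) or RRM2 (0.41 ± 0.24, adjusted p = 0.19). In fits that left out 1 library, 22 to 40 members were called higher, with 40 without sham shControl library 2. Of the 31 calls of the main fit 21 held each time. Those of CDC6, FEN1, GINS3, GINS4, MCM4, ORC1, ORC6, POLE2, RFC4 and RFC5 did not (adjusted p = 0.050 to 0.21): each was lost without sham shControl library 1, low in its group, or sham shFXR library 3, high in its group, and GINS3, GINS4 and RFC4 also without 1 other library. Without sham shControl library 1 the difference of MCM4 was 0.32, and without sham shControl library 2 that of GINS3 was 0.76. Other genes differed between the lines as well, here in CPM without TMM scaling. The sum of 5 epithelial markers was 5190 to 8310 CPM in shControl and 2460 to 3540 CPM in shFXR libraries. That of 4 fibroblast markers was 15.9 to 24.6 and 26.9 to 41.7 CPM. The part of that difference in the values here was not tested.

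After radiation the order turned for part of the list. In irradiated cells 20 members were lower in the shFXR line and 2 higher, where 21.3% of all tested genes were lower and 19.5% higher, with a median of -0.35. RRM2 (-1.73 ± 0.32), ESCO2 (-1.67 ± 0.32), MCM10 (-1.50 ± 0.41), CDC45 (-1.42 ± 0.34), TK1 (-1.41 ± 0.22) and CDC6 (-1.39 ± 0.25) were the furthest below shControl cells. PCNA, not called between the sham lines, was lower by 1.18 ± 0.11 (adjusted p = 4.8e-08). The 2 genes that were higher were POLD1 (0.48 ± 0.11) and CDT1 (0.37 ± 0.12), and the call of CDT1 was lost without irradiated shControl library 1 or 2 or irradiated shFXR library 1 (adjusted p = 0.054, 0.061 and 0.13), which left 1 gene higher. CLSPN (-1.26 ± 0.45), GINS3, MCM10, RPA3, RRM1 and TIMELESS each lost their call without irradiated shControl library 3 (adjusted p = 0.062 to 0.21), and, apart from MCM10, without other libraries too. CLSPN was also lost with DESeq2 (adjusted p = 0.056) and RRM1 with total count scaling (adjusted p = 0.058).

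A crossing, with a higher call in sham and a lower call in irradiated shFXR than in shControl cells, was found for 12 members: CDC6, CLSPN, ESCO2, GINS2, GINS3, MCM10, MCM4, ORC1, ORC6, RFC3, RRM1 and TIMELESS. Among all tested genes this pattern was found in 0.766%. The count of 12 depended on single libraries: it was 7 without sham shFXR library 3 and 7 without irradiated shControl library 3, and 7 to 16 over all fits that left out 1 library, where a comparison without that library kept its calls. ESCO2, GINS2 and RFC3 crossed in each of those fits. The count was 9 with DESeq2, 17 with no filter and 21 with limma weights. A second set of 18 was higher in sham shFXR cells and not called after radiation (8.38% of all tested genes, and 14 to 23 members with 1 library left out), among them 5 of the MCM2-7 genes, both CAF-1 genes, UHRF1, PRIM1, POLE, POLE2 and TYMS. CDT1 was higher in the shFXR line under both treatments. The sham and irradiated comparisons of the lines share no library, but the difference of responses uses all 4 groups, so a high sham level in shFXR cells enters both that difference and the crossing.

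**Figure D4:**
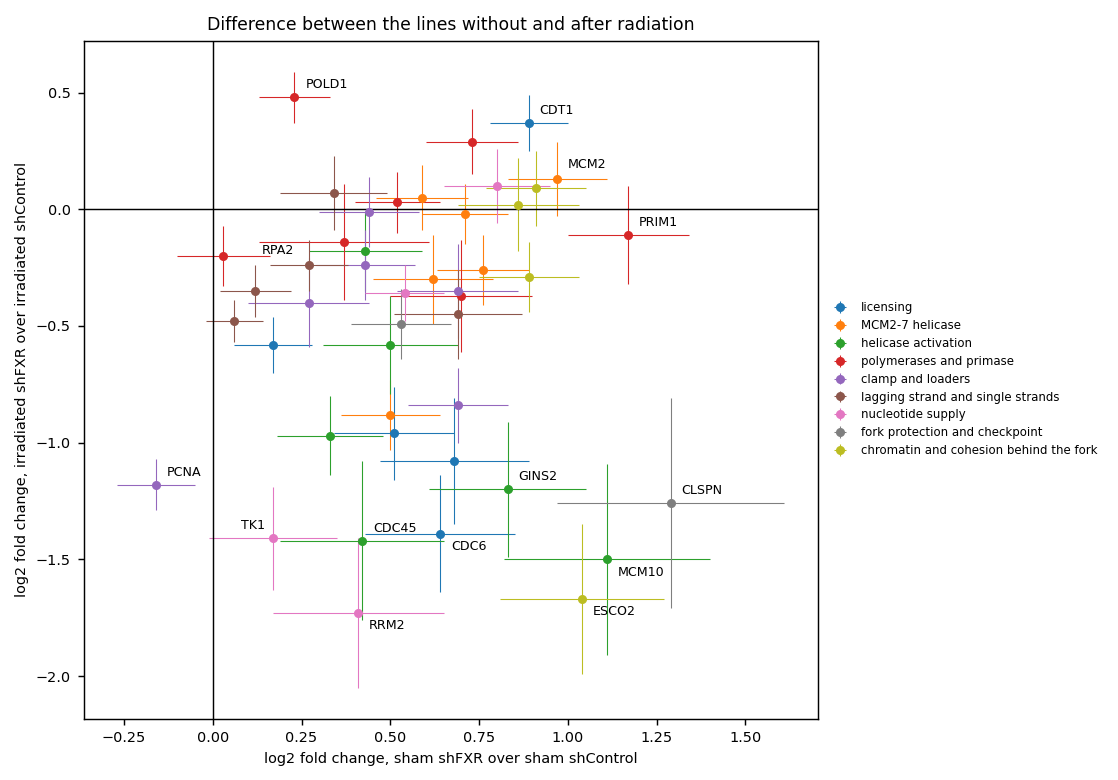
Difference between the lines for each gene as log2 fold change, shFXR over shControl, without radiation (x axis) and after radiation (y axis), with standard errors and colours by role. Points at the lower right, such as MCM10, CLSPN, ESCO2 and CDC6, were higher in sham and lower in irradiated shFXR cells, while PCNA, TK1, CDC45 and RRM2 sit low without a called difference in sham cells.

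Other genes of the same processes, listed beside the members, also fell in most cases in shFXR cells. To set beside the counts of this list and those below, 10.2% of all tested genes fell and 10.9% rose in shFXR cells. In shControl cells 4.96% of all tested genes fell and 5.07% rose. Of 16 other origin and firing genes 13 fell in irradiated shFXR cells (median -0.87) and 2 in shControl cells (median -0.24). TICRR, which brings CDC45 to the helicase, fell by 1.51 ± 0.17 in shFXR cells, MCM8, of a helicase used in repair, by 0.90 ± 0.08, and MCMBP, which binds free MCM proteins, by 0.66 ± 0.09. TOPBP1, a firing and checkpoint adaptor, differed between the responses by -0.65 ± 0.14. The differences of TICRR (-0.91 ± 0.24) and MCMBP (-0.41 ± 0.12) were lost without irradiated shControl library 3 (adjusted p = 0.056 and 0.099) and without other libraries.

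Among 13 tested polymerase, clamp and lagging strand genes outside the members, 12 fell and 1 rose in shFXR cells (median -0.43), and 3 fell in shControl cells. DNA2, a flap nuclease, fell by 1.11 ± 0.15, ATAD5, which unloads PCNA, by 1.26 ± 0.22, and TIPIN, the partner of TIMELESS, by 0.77 ± 0.16. The gene that rose was POLD4, the smallest polymerase delta subunit (0.34 ± 0.11, adjusted p = 0.041), but this did not hold under scaling by total counts (adjusted p = 0.091) or without any one of 5 of the 6 shFXR libraries (adjusted p = 0.065 to 0.19). POLE3, a polymerase epsilon subunit, differed between the responses by -0.55 ± 0.14.

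Of 12 other nucleotide supply genes, 6 fell and 2 rose in shFXR cells, and 3 fell and 1 rose in shControl cells. DTYMK, the thymidylate kinase, and DUT, which removes dUTP, fell by 0.87 ± 0.11 and 0.80 ± 0.10 in shFXR cells. RRM2B, the p53-inducible small subunit of ribonucleotide reductase, rose in both lines, by 0.71 ± 0.10 in shControl and 0.44 ± 0.10 in shFXR cells, opposite to its cell cycle counterpart RRM2. TYMP, thymidine phosphorylase, which breaks thymidine down, rose by 0.82 ± 0.16 in shFXR cells and had -0.29 ± 0.15 in shControl cells, a difference of 1.10 ± 0.21 (adjusted p = 0.0029). Over the 12 genes the difference of responses was called lower for 2, DCK among them, and higher for 1 (median -0.23). Of all tested genes 7.67% were lower and 7.31% higher in it.

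Of 11 other genes of chromatin duplication 9 fell in shFXR cells (median -0.68) and 3 in shControl cells. ASF1B, a histone chaperone, fell by 2.37 ± 0.26 in shFXR cells and NASP, which keeps a histone reserve, by 0.91 ± 0.08. SMC1A, a cohesin subunit, fell by 0.79 ± 0.09, with a difference of -0.70 ± 0.13, and SLBP, which binds the histone mRNA stem loop, differed by -0.57 ± 0.13. Among 15 S phase control genes 11 fell and 1 rose in shFXR cells (median -1.24), and 6 fell and 2 rose in shControl cells. E2F1, the transcription factor, fell by 0.63 ± 0.13 in shControl and 1.52 ± 0.14 in shFXR cells, a difference of -0.89 ± 0.19 (adjusted p = 0.0061). CCNA2, cyclin A of S and G2 phase, fell by 1.10 ± 0.21 and 3.30 ± 0.24, and DTL, which targets CDT1 for destruction during S phase, fell by 2.56 ± 0.23 in shFXR cells and had -0.57 ± 0.23 in shControl cells. CDKN1A, the gene of p21, rose in both lines, by 1.21 ± 0.07 in shControl and 1.01 ± 0.07 in shFXR cells, and this difference did not pass (-0.20 ± 0.10, adjusted p = 0.18).

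The 12 mitotic genes fell further than the replication genes in both lines by their medians, -1.05 in shControl and -2.73 in shFXR cells, and 11 and 12 of them were called. MKI67 fell by 1.42 ± 0.19 and 4.04 ± 0.23, TOP2A by 0.98 ± 0.17 and 3.10 ± 0.18, and KIF11 by 0.96 ± 0.14 and 2.55 ± 0.15. In the comparison of irradiated lines 12 of 12 mitotic genes were lower in shFXR cells (median -1.33). This held for 20 of 45 replication genes (median -0.35) and for 21.3% of all tested genes. In sham cells 6 of 12 mitotic genes were higher in the shFXR line (median 0.40), as were 18.0% of all tested genes. These differences between the 2 lists were not tested.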

How the data were processed

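RNA was measured in 12 libraries, 4 groups of 3. The deposited table gives a raw count per gene and library. Per the submitters' processing notes, the build was hg38, and DESeq2 1.20.0 is listed with no role. No source used here gives the aligner, counting tool or strand setting. The 58735 gene identifiers and coordinates equal those of GENCODE 29, and each library's column was matched by its title.

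Genes were kept with filterByExpr (minimum count 10, minimum total 15), which left 16053, of 33302 with a count. The quasi-likelihood test of edgeR 4.0.16 (R 4.3.3) was run on TMM-scaled counts with 1 coefficient per group over 12 libraries (8 residual and 11.9 prior degrees of freedom, common dispersion as a coefficient of variation 0.0874). Benjamini-Hochberg adjusted p under 0.05 over all tested genes was called, and standard errors were taken as log2 change over the root of F. Fits were tested on simulated data. Fold changes are between groups as named. The p-values rest on the spread between replicates pooled over the 4 groups, not on that of the compared groups alone. The 3 replicates per group are labelled biological with no source stated.

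The members, gene lists and tests were chosen with earlier results of these data known, so the lists got no test of their own. Values in every library are given for the member with the largest difference of responses in each role, for members not called in shFXR cells, and for PCNA. CDC45 and POLD1 were added after their values were seen. Of other lists, up to 3 called genes each way with the smallest adjusted p are named, apart from 1 gene that is not reported here. Alternatives were scaling by RLE or total counts, no filter, a mean of 5 CPM, a replicate block, only the groups compared, DESeq2 1.42.0 and leaving out each library. Limma 3.58.1 with library weights was added after seeing the data. An opposite sign was counted as a reversal where a value was called or moved by more than its standard error. Exonic overlap was computed from GENCODE 29 and motifs were searched on both strands of RefSeq windows.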

Additional observations from a re-analysis of the deposited data

Results flagged for a closer look

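The radiation response differed between the lines, by the test of the difference itself (edgeR, adjusted p under 0.05), for 35 of the 45 replication genes. Over all tested genes the difference was called lower for 7.67% and higher for 7.31%. For each of the 35 the log2 change in shFXR cells was below 0 and below that in shControl cells. Among licensing genes the log2 differences were -1.76 for ORC1, -1.46 for ORC6, -2.03 for CDC6, -0.52 for CDT1 and -0.74 for GMNN. In the MCM2-7 ring they were -0.83 for MCM2, -1.38 for MCM4, -0.92 for MCM5, -1.01 for MCM6 and -0.72 for MCM7. Helicase activation genes differed by -2.61 (MCM10), -1.85 (CDC45), -1.29 (GINS1), -2.03 (GINS2) and -1.08 (GINS3). PRIM1 and POLE2 differed by -1.28 and -1.06. The clamp PCNA differed by -1.03 and the loader genes RFC3, RFC5 and DSCC1 by -1.53, -0.67 and -1.04. On the lagging strand the differences were -1.14 for FEN1 and -0.55, -0.51 and -0.48 for RPA1, RPA2 and RPA3. Nucleotide supply genes differed by -0.90 (RRM1), -2.13 (RRM2), -0.70 (TYMS) and -1.57 (TK1). The fork protection genes TIMELESS and CLSPN differed by -1.02 and -2.55. Behind the fork the differences were -1.17 for CHAF1A, -0.85 for CHAF1B, -0.82 for UHRF1 and -2.71 for ESCO2. Of these 35 calls 24 held in each fit that left out 1 of the 12 libraries. Those of CDT1, CHAF1B, DSCC1, GINS3, MCM5, POLE2, RFC5, RPA2, RPA3, TYMS and UHRF1 were lost in at least 1 such fit. The 35 include all 20 members called lower in irradiated shFXR than in irradiated shControl cells. The others were not called lower there, and the sham levels of both lines enter the difference as well.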

How the results depend on the processing

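No member changed to a called opposite direction under any alternative. With RLE scaling every member kept its call in all 5 comparisons. The fall of members in shControl cells depended most on the libraries and settings: 20 members fell in the main analysis, 31 with no filter, 11 when only the groups compared were fitted, and 9 to 33 when 1 library was left out. In shFXR cells the count was 42 to 44 when 1 library was left out, against 44, and 45 with total counts, no filter, only the groups compared or limma weights. Members higher in irradiated shFXR than in irradiated shControl cells numbered 1 to 2 when 1 library was left out. Over all genes the shControl radiation count was 1611, 551 with only the groups compared and 562 to 1932 with 1 library left out. The shFXR count was 3379, and 2106 to 2553 with 1 library left out. The difference of responses was called for 2405 genes, and for 1162 to 3254 with 1 library left out. Limma with library weights, chosen after seeing the data, called 2659, 6298 and 4300 genes in these 3 comparisons.

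The labels number the replicates 1 to 3 in each group, but deviations from group means of same-numbered libraries correlated between -0.14 and 0.23, so the numbers were not taken to pair the samples. With a replicate block the counts of members were 24 lower in shControl cells, 44 lower in shFXR cells, 33 higher in sham shFXR cells, 21 lower and 2 higher after radiation, and 38 for the difference, and over all genes 1553, 3236, 5889, 6463 and 2358.

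Signs turned in these uncalled values, given as the range over fits without 1 library. Shown first are shControl radiation changes: GINS3 ran from -0.28 to 0.14 and POLA2 from -0.36 to 0.30 (above 0 without sham library 2), while RPA1 ran from -0.07 to 0.11, RPA2 from -0.00097 to 0.25 and TOPBP1 from -0.09 to 0.10 (below 0 without irradiated library 3). The sham difference of TK1 ran from -0.04 (without sham shControl library 1) to 0.47. Differences of the irradiated lines turned without irradiated shControl library 3: MCMBP -0.08 to 0.08, POLE3 -0.16 to 0.04, POLD4 -0.09 to 0.19, TOPBP1 -0.16 to 0.05 and TIPIN -0.29 to 0.06. With limma weights the shControl radiation changes of TOPBP1 and POLA2 were -0.08 and 0.25, the sham difference of POLA1 -0.12 and the irradiated difference of TIPIN 0.02. The cause was not tested. Depth limits CLSPN and MCM10 most, whose lowest libraries held 11 and 10 counts.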
